A study of Homo sapiens with 9 samples.

Results

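The mRNA of 10 human aldehyde dehydrogenases was compared between a kidney tubule line and 2 renal cancer lines. The genes are *ALDH2*, *ALDH1A1*, *ALDH1A2*, *ALDH1A3*, *ALDH1B1*, *ALDH3A1*, *ALDH3A2*, *ALDH6A1*, *ALDH7A1* and *ALDH9A1*. They were found by their NCBI gene identifiers, and all 10 were among the 28395 genes listed in the table of read counts. HK2 is an established line of normal kidney, labelled as proximal tubule cells. 786-O is a parental line of clear cell renal cell carcinoma (ccRCC), and the remaining line is labelled as a metastatic derivative of 786-O and was recovered from lung metastases after injection in vivo. All cells were grown stably in Plasmax, a medium composed after human plasma, with no further treatment, and each line was sequenced as 3 libraries. 786-O is known to lack functional VHL, the ubiquitin ligase subunit that targets hypoxia-inducible factors for degradation, and the metastatic derivative descends from it, so that neither cancer line is independent of the other. Each stage of the disease is represented by 1 line, and a difference between lines cannot be told apart from a difference between stages.

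Aldehyde dehydrogenases oxidize aldehydes, which react with proteins and DNA, to carboxylic acids, using NAD or NADP as the electron acceptor. Part of the family clears aldehydes from ethanol and from oxidized lipids, another part makes retinoic acid from retinaldehyde, and others act at fixed steps of amino acid, lipid or carnitine metabolism. The kidney tubule is rich in mitochondria and degrades many amino acids, and several of these enzymes reside in mitochondria.

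Between 30212291 and 45362428 reads were counted on genes per library, and 3 counts, the floor used here, correspond to between 0.0661 and 0.0993 CPM, a count scaled to library size. Levels were scaled to library totals corrected by the TMM factors of edgeR, which lay between 0.964 and 1.03. Each pair of lines was tested with the quasi-likelihood method of edgeR over 12695 genes, those averaging 50 counts or more, and a gene is called higher or lower where its Benjamini-Hochberg adjusted p-value is under 0.05. For 3 libraries against 3, the smallest p-value of an exact permutation test (two-sided) is 0.1. In each line 4 of 12 markers of proximal tubule were at or under the floor in every library. *LRP2*, *SLC22A6* and *SLC22A8* had 0 counts throughout. Also at or under the floor, though not 0 throughout, were *HNF4A* in HK2 and the metastatic derivative (at most 2 counts) and *SLC34A1* in 786-O (at most 3 counts). Other genes of the list were well expressed in HK2, among them *PAX8* at 167 CPM and *GGT1* at 107 CPM, and the 12 genes summed to between 277 and 282 CPM there. The summed level of 6 genes that respond to hypoxia-inducible factors was between 174 and 182 CPM for HK2, between 605 and 669 CPM for 786-O and between 965 and 1020 CPM for the metastatic derivative. *CCND1* and *VEGFA* made up most of this sum, while *PLIN2* had a lower mean in both cancer lines (55.7 CPM in HK2, 38.6 and 45.3 CPM in 786-O and its derivative) and *CA9* had at most 3 counts. The 4 markers of the metastatic phenotype summed to between 85.3 and 88.2 CPM in the metastatic derivative and between 10.5 and 13.9 CPM in 786-O. Of 5 markers of immune and endothelial cells, all but *CD68* were at or under the floor in each line. As these are bulk libraries, fewer cells that express a gene and less RNA per cell cannot be told apart.

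In all, 8 of the 10 genes passed the filter on low counts. *ALDH1A2*, the retinaldehyde dehydrogenase of the embryo, had 0, 1 and 3 counts in the HK2 libraries, 1, 0 and 2 in 786-O and 0 in each metastatic derivative library. *ALDH3A1*, an enzyme abundant in cornea and stomach, had 1 count in replicate 2 of 786-O and 0 elsewhere. All libraries were at or under the floor of 3 counts for both genes, and no difference between lines was detectable at this depth. Between 786-O and HK2, 2 genes were higher (*ALDH2*, *ALDH1A1*) and 4 were lower (*ALDH1A3*, *ALDH6A1*, *ALDH7A1*, *ALDH9A1*). Over all genes tested 41.7% were called higher and 42.5% lower in this comparison, so that 6 of 8 is no more than the background gives. At least a 2-fold difference was found for 4 of them, against 22.3% of all genes. Of these 4, *ALDH2* and *ALDH1A1* passed the filter only through their counts in the cancer lines, so that 4 of 8 is not read as an excess. The same 6 genes were called in the same directions between the metastatic derivative and HK2, where 42.0% of all genes were higher and 42.9% lower, and the same 4 differed by at least 2-fold, against 25.4% of all genes. These 2 comparisons share the HK2 libraries. Between the metastatic derivative and 786-O, 2 genes were higher (*ALDH2*, *ALDH1A3*) and 3 lower (*ALDH1A1*, *ALDH7A1*, *ALDH9A1*), where 29.0% of all genes were higher and 27.1% lower. Only *ALDH2* differed by at least 2-fold between the cancer lines, as did 6.55% of all genes. The median log2 fold change of the 8 genes was -0.12 in 786-O and -0.14 in the metastatic derivative against HK2, and -0.09 between the cancer lines, where the medians of all genes tested were -0.01, -0.01 and 0.01.

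**Figure D1:**
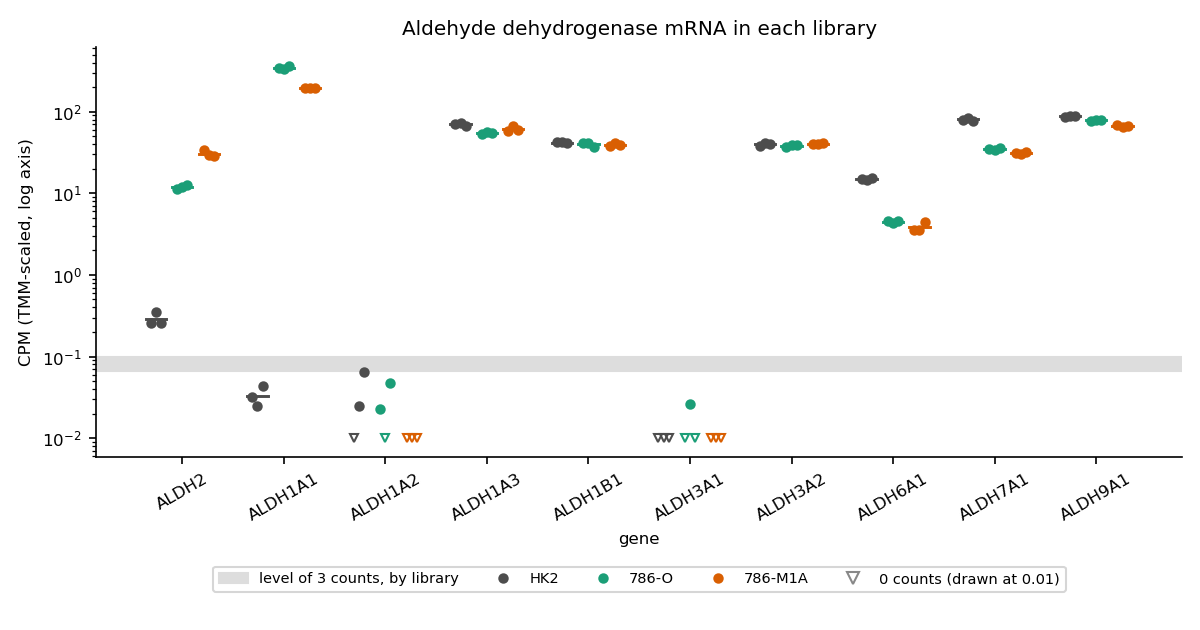
Level of each of the 10 genes in CPM (log axis) in each library, with 3 points per line (HK2 grey, 786-O green, metastatic derivative orange), a bar at the mean where no library is at 0, a grey band at the level of 3 counts, and open triangles for libraries with 0 counts. ALDH1A1 went from under the band in HK2 to a mean of 347 CPM for 786-O and 195 CPM for the metastatic derivative, while ALDH1A2 and ALDH3A1 had at most 3 counts in any library.

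*ALDH1A1*, a cytosolic enzyme that oxidizes retinaldehyde to retinoic acid and is widely used as a marker of stem-like tumor cells, showed the largest difference of the 10 genes. The HK2 libraries held 1, 1 and 2 counts of it. The 786-O libraries held 15091, 12633 and 15571 counts, or 339, 334 and 367 CPM, with a mean of 347 ± 17.6 CPM (SD, n = 3). The metastatic derivative libraries held 7053, 7447 and 7358 counts, or 196, 194 and 195 CPM, with a mean of 195 ± 0.99 CPM (SD, n = 3). No libraries overlapped between lines, and every HK2 library was under the floor. The ratio of pooled counts per total count was 10000 in 786-O against HK2, with a 95% exact Clopper-Pearson interval of 3910 to 36700, and 5400 in the metastatic derivative against HK2, with an interval of 2110 to 19800. These intervals cover counting error only and rest on 4 counts in HK2. The adjusted p-values of edgeR were 2.62e-27 and 1.38e-26. Within the cancer lines it was lower in the metastatic derivative, with a log2 fold change of -0.83 (SE 0.04, adjusted p = 1.20e-13 by edgeR), which is a 1.78-fold difference.

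*ALDH2*, the mitochondrial enzyme that clears acetaldehyde from ethanol and 4-hydroxynonenal from oxidized lipids, was higher in both cancer lines and increased further in the metastatic derivative. Its counts were 8, 14 and 12 in HK2, 507, 449 and 539 for 786-O and 1218, 1129 and 1086 for the metastatic derivative. In HK2 the mean was 0.287 ± 0.0515 CPM, and it was 12.0 ± 0.66 CPM for 786-O and 30.7 ± 2.79 CPM for the metastatic derivative (SD, n = 3 each), and the 3 lines did not overlap. The log2 fold change was 5.36 (adjusted p = 2.99e-18 by edgeR) in 786-O and 6.72 (adjusted p = 4.43e-21) in the metastatic derivative against HK2. No SE is given against HK2, as the SE of the fit does not cover the counting error of its 34 counts. Between the cancer lines it was 1.35 (SE 0.07, adjusted p = 5.51e-13), a 2.56-fold difference. *ALDH2* and *ALDH1A1* thus took opposite directions between 786-O and the metastatic derivative.

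*ALDH1A3*, the third gene of the retinaldehyde dehydrogenases, was at its highest in HK2 and differed little between lines. Its level was 70.9, 72.7 and 66.2 CPM in the HK2 libraries, 53.4, 55.9 and 54.2 CPM in 786-O and 58.6, 66.0 and 59.8 CPM in the metastatic derivative. The highest metastatic derivative library was just under the lowest HK2 library, and the 3 lines did not overlap. The log2 fold change was -0.36 (SE 0.05, adjusted p = 8.27e-07 by edgeR) in 786-O and -0.18 (SE 0.05, adjusted p = 0.00167) in the metastatic derivative against HK2. Between the metastatic derivative and 786-O it was 0.18 (SE 0.05, adjusted p = 0.00502), and this call was lost without replicate 2 of the metastatic derivative, when it was 0.12 (adjusted p = 0.0541). In the annotation 1715 exon bases lie in common with *ALDH1A3-AS1* on the opposite strand, which had at most 11 counts in any library. Of *ALDH1A1*, *ALDH1A2* and *ALDH1A3*, only the last was above the floor in HK2.

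The RefSeq promoter table (GRCh38.p14) held 8 of the 10 genes, all but *ALDH2* and *ALDH3A1*. From these 8, 4 promoters are shown, those of *ALDH1A1* and *ALDH1A3* as related enzymes of which the one was nearly silent in HK2 and the other was not, and *ALDH6A1* and *ALDH7A1* as the genes that were at least 2-fold lower in both cancer lines. Each sequence is the 250 bases before the annotated start, 5′ to 3′ on the strand of the gene. Capitals mark the letters ACGTG (a form of the core of the hypoxia response element), CCAAT (the CCAAT box), GGGCGG (the GC box) and TATAA (the core of the TATA box) on either strand. They lie at chr9:72953054-72953303 (minus strand) for *ALDH1A1*, chr15:100879581-100879830 (plus strand) for *ALDH1A3*, chr14:74084454-74084703 (minus strand) for *ALDH6A1* and chr5:126595220-126595469 (minus strand) for *ALDH7A1*.
ALDH1A1: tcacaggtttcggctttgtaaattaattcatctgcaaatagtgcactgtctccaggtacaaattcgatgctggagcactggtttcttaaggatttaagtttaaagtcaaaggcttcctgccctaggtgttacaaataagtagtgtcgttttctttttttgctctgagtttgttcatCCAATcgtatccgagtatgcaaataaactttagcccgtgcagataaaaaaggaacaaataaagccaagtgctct
ALDH1A3: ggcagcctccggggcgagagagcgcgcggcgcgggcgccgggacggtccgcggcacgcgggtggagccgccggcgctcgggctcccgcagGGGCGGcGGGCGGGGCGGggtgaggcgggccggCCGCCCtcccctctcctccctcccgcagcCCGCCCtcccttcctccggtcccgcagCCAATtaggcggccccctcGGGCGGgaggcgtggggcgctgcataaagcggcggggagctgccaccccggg
ALDH6A1: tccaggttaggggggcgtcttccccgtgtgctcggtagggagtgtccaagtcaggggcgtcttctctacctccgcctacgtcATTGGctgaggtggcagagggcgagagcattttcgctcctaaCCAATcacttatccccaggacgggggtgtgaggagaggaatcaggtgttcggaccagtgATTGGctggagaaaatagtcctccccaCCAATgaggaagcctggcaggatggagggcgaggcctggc
ALDH7A1: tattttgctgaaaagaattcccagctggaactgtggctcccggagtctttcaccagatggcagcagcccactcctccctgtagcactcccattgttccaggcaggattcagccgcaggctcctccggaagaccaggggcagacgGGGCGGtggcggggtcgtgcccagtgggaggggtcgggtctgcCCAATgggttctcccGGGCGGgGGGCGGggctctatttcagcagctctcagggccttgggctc

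Among 35116 promoters of the table, 18.5% held ACGTG, 32.0% held CCAAT, 42.6% held GGGCGG and 18.9% held TATAA in this window. The window of *ALDH1A1* was poor in GC, with 38.4% G and C and 6 CG dinucleotides, where the median of all promoters was 11, and it held 1 CCAAT and no other of these motifs. The window of *ALDH1A3* had 82.4% G and C, 38 CG dinucleotides, 6 GC boxes, a pair of which share a base, and 1 CCAAT. *ALDH6A1* had 4 CCAAT and *ALDH7A1* had 3 GC boxes and 1 CCAAT, both with 11 CG dinucleotides. None of the 4 windows held ACGTG, which says only that these letters are not in these bases, and other forms of the core were not searched. Among the promoters not shown, *ALDH1B1*, *ALDH1A2* and *ALDH3A2* each had a window with ACGTG, while *ALDH9A1* had none.

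*ALDH6A1*, the mitochondrial methylmalonate semialdehyde dehydrogenase of valine and thymine degradation, showed the largest decrease of the 10 genes in the cancer lines. Its level was 15.1, 14.7 and 15.2 CPM in the HK2 libraries, 4.54, 4.29 and 4.62 CPM in 786-O and 3.56, 3.58 and 4.41 CPM in the metastatic derivative. All cancer libraries were below all HK2 libraries, while 1 library of the metastatic derivative lay within the range of 786-O. The log2 fold change against HK2 was -1.74 (SE 0.08, adjusted p = 1.34e-14 by edgeR) in 786-O and -1.96 (SE 0.08, adjusted p = 3.25e-15) in the metastatic derivative. Between the cancer lines it was -0.22 with a 95% interval of -0.43 to -0.01 and did not pass the threshold (adjusted p = 0.0652). It was called without replicate 3 of the metastatic derivative, the highest of that line, at -0.33 (adjusted p = 0.0119). The gene shares 670 exon bases with *BBOF1* on the opposite strand, and *BBOF1* itself was lower in both cancer lines, at 10.3 ± 0.568 CPM for HK2, 3.27 ± 0.123 CPM for 786-O and 4.22 ± 0.0427 CPM for the metastatic derivative (SD, n = 3). The use of the strand in counting is not given in the sources used here, and reads of the shared bases cannot be told apart without it.

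*ALDH7A1*, also called antiquitin, oxidizes alpha-aminoadipic semialdehyde in the degradation of lysine. Its level was 79.8, 84.8 and 77.5 CPM in the HK2 libraries, 35.3, 33.7 and 35.8 CPM in 786-O and 31.3, 30.4 and 32.4 CPM in the metastatic derivative. The lines did not overlap, and HK2 stood far above both cancer lines. The log2 fold change was -1.21 (SE 0.05, adjusted p = 5.57e-16 by edgeR) in 786-O and -1.36 (SE 0.05, adjusted p = 8.03e-17) in the metastatic derivative against HK2. The further difference of -0.16 between the metastatic derivative and 786-O (SE 0.05, adjusted p = 0.0103) was lost without replicate 2 of the metastatic derivative, when it was -0.13 (adjusted p = 0.0516). *ALDH7A1* has 4 annotated pseudogenes, none of which is listed in the table, so reads that match both may have been assigned to it or dropped.

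*ALDH9A1*, which oxidizes trimethylaminobutyraldehyde in the synthesis of carnitine, was lower in 786-O and lower still in the metastatic derivative. Its level was 87.0, 89.8 and 88.4 CPM in the HK2 libraries, 76.8, 78.4 and 80.1 CPM in 786-O and 68.6, 65.6 and 66.5 CPM in the metastatic derivative. The 3 lines did not overlap, although the differences were small. The log2 fold change against HK2 was -0.17 (SE 0.04, adjusted p = 0.000318 by edgeR) in 786-O and -0.40 (SE 0.04, adjusted p = 4.11e-09) in the metastatic derivative, and it was -0.23 (SE 0.04, adjusted p = 3.96e-05) between the cancer lines.

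*ALDH1B1*, a mitochondrial relative of *ALDH2* that also oxidizes acetaldehyde, was not called in any comparison. Its level was 41.9 ± 0.667 CPM for HK2, 39.7 ± 2.05 CPM for 786-O and 39.3 ± 1.39 CPM for the metastatic derivative (SD, n = 3). The 95% intervals of its log2 fold change were -0.17 to 0.02 in 786-O and -0.19 to 0.01 in the metastatic derivative against HK2, and -0.11 to 0.09 between the cancer lines. *ALDH3A2*, the fatty aldehyde dehydrogenase of the endoplasmic reticulum that is mutated in Sjögren-Larsson syndrome, was at 39.9 ± 1.31 CPM for HK2, 38.3 ± 1.39 CPM for 786-O and 40.6 ± 0.595 CPM for the metastatic derivative (SD, n = 3). Its intervals were -0.15 to 0.04 and -0.07 to 0.12 against HK2 and -0.01 to 0.18 between the cancer lines. With upper-quartile scaling both genes were called lower in 786-O, at -0.12 and -0.10, and *ALDH1B1* also in the metastatic derivative, at -0.15. Without replicate 2 of the metastatic derivative, *ALDH1B1* was also called lower in that line against HK2, at -0.12 (adjusted p = 0.0491 by edgeR).

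**Figure D2:**
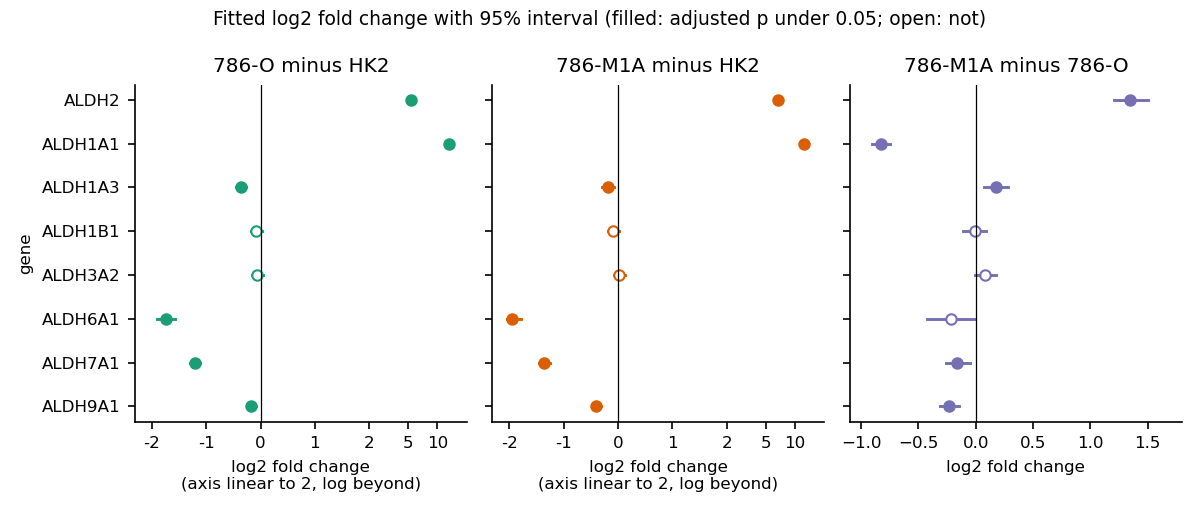
Fitted log2 fold change (x axis, linear to 2 and logarithmic beyond it in the panels against HK2, linear in the panel of the metastatic derivative against 786-O) with its 95% interval for the 8 genes tested, filled where the adjusted p-value is under 0.05. ALDH1A1 and ALDH2 lie to the right in both comparisons with HK2 and on opposite sides of 0 between the cancer lines, where ALDH2 is at 1.35 and ALDH1A1 at -0.83. The fitted values of ALDH1A1 against HK2 depend on the prior count, as HK2 held 4 counts in all. Its drawn intervals against HK2 are narrower than the exact intervals in the text. Those of ALDH2 against HK2 do not cover the counting error of HK2.

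The order of the lines differed from gene to gene. *ALDH2* was in the order metastatic derivative, 786-O, HK2 and *ALDH1A1* in the order 786-O, metastatic derivative, HK2, and each step passed the test. *ALDH7A1* and *ALDH9A1* shared the order HK2, 786-O, metastatic derivative with all steps called. *ALDH1A3* was in the order HK2, metastatic derivative, 786-O with all steps called, and in *ALDH6A1* the cancer lines did not differ beyond the threshold. *ALDH1B1* and *ALDH3A2* had no step that passed the test.

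To compare the genes with each other, CPM were divided by the length of the union of annotated exons in kilobases (GENCODE release 44). The 10 genes summed to 65.3 ± 1.28 CPM per kilobase in HK2, 178 ± 6.10 for 786-O and 123 ± 0.685 for the metastatic derivative (SD, n = 3). In HK2 *ALDH9A1* was first with 45.0 ± 0.653% of this sum, followed by *ALDH1B1* with 20.6 ± 0.2% and *ALDH1A3* with 20.1 ± 0.649%, a difference smaller than the SD of *ALDH1A3*. *ALDH1A1* held 0.018% in HK2, 68.8 ± 1.13% for 786-O and 55.8 ± 0.321% for the metastatic derivative, where it was the first of the 10. *ALDH9A1* was second in both cancer lines with 14.7 ± 0.285% and 18.1 ± 0.411%. *ALDH2* held 0.0451% in HK2, 0.695% for 786-O and 2.56% for the metastatic derivative, so that it remained a minor part of the sum in spite of its increase. With the length of the MANE Select transcript, an alternative chosen after the data were seen, *ALDH1A1* held 67.0% in 786-O and 53.7% in the metastatic derivative, and *ALDH9A1* remained first in HK2 with 36.4%. The order below it changed, as *ALDH1B1* fell in HK2 to 13.6%, behind *ALDH1A3* with 19.9% and *ALDH7A1*, and in both cancer lines *ALDH1A3* passed *ALDH1B1*. The shares of *ALDH7A1* and *ALDH3A2*, whose exon unions are long, moved in HK2 from 6.89% to 16.7% and from 3.98% to 10.6%.

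**Figure D3:**
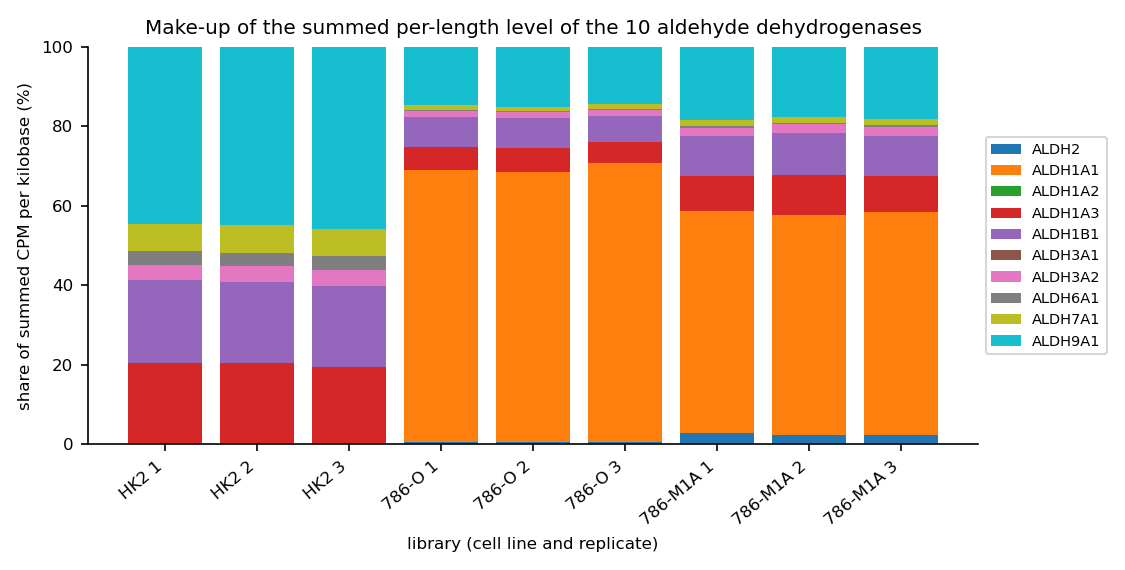
Share of each gene (colors) in the summed CPM per kilobase of the 10 aldehyde dehydrogenases (y axis, percent) in each of the 9 libraries. ALDH9A1, ALDH1B1 and ALDH1A3 make up most of the HK2 bars, and ALDH1A1 takes 68.8% of the 786-O bars and 55.8% of the the metastatic derivative bars on average.

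The 10 genes lie on 7 chromosomes, and the genes next to them were compared in the same fit, taking the 5 nearest tested genes on either side. *ALDH1A1* spans chr9:72900671-73080442 on the minus strand. All 10 of its neighbours were called higher in both cancer lines, 9 of them by at least 2-fold. Their median log2 fold change was 1.63 in 786-O and 1.92 in the metastatic derivative, with ranges of 0.56 to 3.14 and 0.60 to 3.51, so that none came near the difference of *ALDH1A1* itself. The nearest, *ANXA1*, which encodes a phospholipid-binding protein, was at 2.62 in 786-O (adjusted p = 1.04e-22 by edgeR). These neighbours are spread over 4.76 megabases, and with 10 neighbours on either side 18 of 20 were higher, with medians of 1.71 and 2.07 and a highest value of 8.84 in 786-O. On the whole of chromosome 9, 46.3% of 529 tested genes were higher in 786-O and 59.4% in the metastatic derivative, with medians of 0.07 and 0.27.

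*ALDH6A1* spans chr14:74056847-74084492 on the minus strand, and all 10 of its neighbours were called lower in both cancer lines. Their median log2 fold change was -0.95 in 786-O and -0.86 in the metastatic derivative, against -1.74 and -1.96 for *ALDH6A1*, and 1 neighbour in each comparison, *LTBP2* at -3.99 in 786-O, differed by as much or more. On chromosome 14, 88.6% of 405 tested genes were lower in 786-O and 84.0% in the metastatic derivative, with medians of -0.74 and -0.68. *ALDH2*, at chr12:111766887-111817532 on the plus strand, went against its surroundings. Its neighbours had a median of -0.31 in 786-O and -0.32 in the metastatic derivative, and the highest of them was at 0.42 and 0.43. Over chromosome 12, 66.6% of 673 tested genes were lower in 786-O and 64.9% in the metastatic derivative. *ALDH7A1*, at chr5:126531200-126595362 on the minus strand, was lower where the median of its neighbours was 0.32 and 0.43 and 54.6% and 55.1% of the 586 tested genes of chromosome 5 were higher. Of its 10 neighbours, 2 in 786-O (*MEGF10* and *GRAMD2B*, the latter at -1.29) and 1 in the metastatic derivative (*MEGF10*) were lower by as much or more, and with 10 neighbours on either side the medians were 0.02 and 0.18. What part the chromosomal surroundings have in the level of these genes was not tested.

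**Figure D4:**
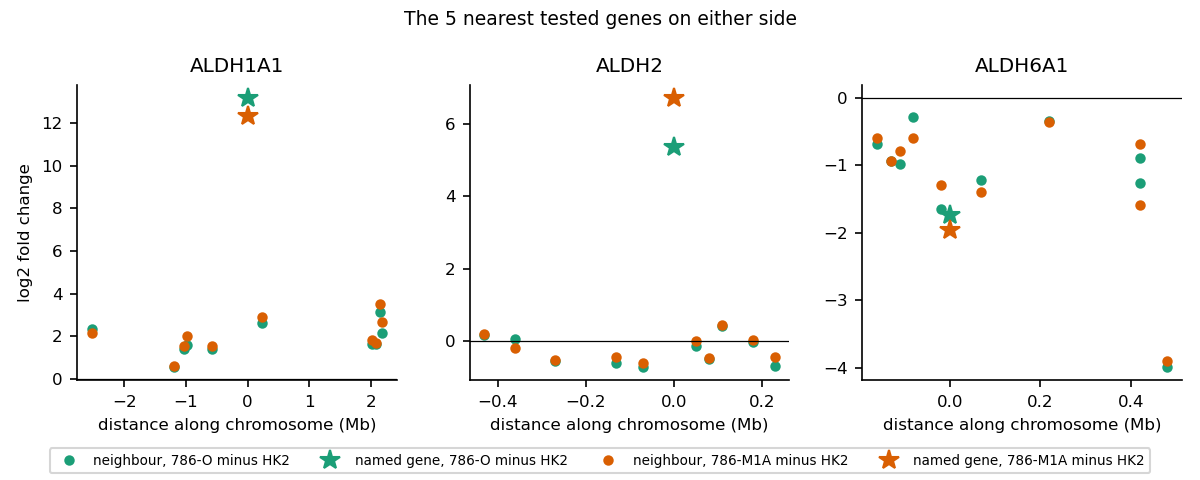
Log2 fold change against HK2 (y axis, its range set per panel) of ALDH1A1, ALDH2 and ALDH6A1 (stars) and of the 5 nearest tested genes on either side (points), by distance along the chromosome in megabases, for 786-O (green) and the metastatic derivative (orange). The neighbours of ALDH1A1 all lie above 0 and far below the star, those of ALDH2 lie around 0, between -0.72 and 0.43, and those of ALDH6A1 all lie below 0.

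Of the 9 other human aldehyde dehydrogenase genes, 6 were tested. Against HK2, 2 were higher and 3 lower in 786-O, and 2 higher and 4 lower in the metastatic derivative, where most genes were called (41.7% higher and 42.5% lower in 786-O, 42.0% and 42.9% in the metastatic derivative). *ALDH1L2*, the mitochondrial 10-formyltetrahydrofolate dehydrogenase, had 192, 203 and 296 counts in HK2, 9, 12 and 10 for 786-O and 86, 105 and 95 for the metastatic derivative. It was thus nearly lost in 786-O and partly present in the metastatic derivative, with log2 fold changes of -4.54 and -1.20 against HK2 and 3.34 (adjusted p = 3.81e-11 by edgeR) between the cancer lines. *ALDH5A1*, the succinate semialdehyde dehydrogenase of GABA breakdown, went down stepwise from 12.1 ± 0.548 CPM in HK2 to 5.27 ± 0.286 CPM for 786-O and 2.67 ± 0.493 CPM for the metastatic derivative (SD, n = 3), with log2 fold changes of -1.20, -2.18 and, between the cancer lines, -0.98. *ALDH18A1*, which makes the proline precursor from glutamate, rose from 190 to 219 and 252 CPM, by 0.20 and 0.40 against HK2. *ALDH3B1* was higher by 0.55 and 0.51, and *ALDH4A1*, the last enzyme of proline degradation, was at -0.44 and -0.34 (log2 fold changes in 786-O and the metastatic derivative against HK2). *ALDH16A1* was at -0.30 in the metastatic derivative against HK2. In 786-O it was at -0.12 and not called (adjusted p = 0.0924), but it was called under 6 alternatives, among them the replicate block (adjusted p = 0.0431) and upper-quartile scaling (-0.16, adjusted p = 0.0279). Its difference of -0.18 from 786-O was called, but libraries overlapped and the call was lost without replicate 1 of 786-O (-0.13, adjusted p = 0.117) and without replicate 2 or 3 of the metastatic derivative (adjusted p = 0.105 and 0.104), as well as with limma (-0.20, adjusted p = 0.0559). *ALDH8A1*, a kynurenine pathway enzyme under the filter, had 24, 31 and 23 counts in HK2, 1, 2 and 4 for 786-O and 0, 1 and 0 for the metastatic derivative, a ratio of pooled counts of 79.0 for HK2 against the metastatic derivative with an exact interval of 13.8 to 3160. *ALDH1L1* had no counts and *ALDH3B2* at most 1 count in any library.

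The retinoid pathway around *ALDH1A1* and *ALDH1A3* was followed with a list of 21 genes, 14 of which were tested. Against HK2, 6 were higher and 7 lower in 786-O, with a median of -0.48, and 3 were higher and 8 lower in the metastatic derivative, with a median of -0.95, where the median of all genes was -0.01. Of all genes 41.7% were higher and 42.5% lower in 786-O, and 42.0% and 42.9% in its derivative. *STRA6*, the membrane receptor for retinol-binding protein, fell from 17.9 ± 0.291 CPM in HK2 to 5.56 ± 0.988 CPM for 786-O and 0.58 ± 0.0476 CPM for the metastatic derivative (SD, n = 3), by log2 fold changes of -1.68 and -4.94. *LRAT*, which esterifies retinol for storage, had 132, 189 and 187 counts in HK2, 3, 0 and 0 for 786-O and 3, 7 and 2 for the metastatic derivative. *CRABP2*, which carries retinoic acid to the nucleus, was at -4.20 in 786-O and -3.30 in the metastatic derivative, and exceeded its 786-O level in the metastatic derivative by 0.89 (SE 0.11, adjusted p = 1.03e-06 by edgeR).

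Among the enzymes that interconvert retinol and retinaldehyde, *RDH10*, which oxidizes retinol, was at -1.03 in 786-O and -1.18 in the metastatic derivative, and *RDH13* was at -1.13 and -1.15 (log2 fold changes against HK2). *RDH11* was lower, at -0.97 and -0.95. *DHRS3*, which reduces retinaldehyde to retinol, was higher, at 0.59 and 0.80, and *RDH14* was not called, at -0.04 and -0.35. *RDH11*, *DHRS3* and *RDH14* are named after their values were seen. *DHRS9*, another retinol dehydrogenase, was higher in 786-O, with 10.1 ± 0.208 CPM against 7.47 ± 0.227 CPM in HK2, and fell to 0.496 ± 0.191 CPM in the metastatic derivative (SD, n = 3). The increase in 786-O, 0.44 on the log2 scale (adjusted p = 6.72e-05), was not called with limma (adjusted p = 0.123). Its difference between the cancer lines was -4.33 (adjusted p = 4.13e-16 by edgeR). Of the cytochromes that degrade retinoic acid, *CYP26B1* was at 3.26 ± 0.232 CPM in 786-O and at 0.53 ± 0.129 CPM in HK2 and 0.564 ± 0.0991 CPM in the metastatic derivative (SD, n = 3), a difference of 2.64 (log2) between 786-O and HK2 (adjusted p = 4.87e-12). *CYP26A1* and *CYP26C1*, which were under the filter and were chosen after their values were seen, went the other way. They had 34, 67 and 71 counts and 68, 84 and 94 counts in the HK2 libraries and 0 in all cancer libraries, so that *CYP26A1* was at least 62.0-fold lower in 786-O and at least 58.1-fold lower in the metastatic derivative, and *CYP26C1* at least 88.7-fold and 83.0-fold lower, against 3 counts over the 3 libraries of a line. Of the receptors, *RXRA*, the shared partner of the retinoic acid receptors, was higher, at 1.28 in 786-O and 1.50 in the metastatic derivative. The other receptors, named after their values were seen, were divided. *RXRB*, also a shared partner, was lower, at -0.91 and -0.96, *RARG* was higher, at 0.64 and 0.82, and *RARA* was at 0.20 and, not called, -0.05. *RARB*, under the filter, had 2, 2 and 3 counts in HK2, and its ratio of pooled counts to HK2 was 8.85 for 786-O (exact interval 4.07 to 22.9) and 4.94 for the metastatic derivative (2.16 to 13.2). Retinoic acid itself was not measured in these libraries.

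**Figure D5:**
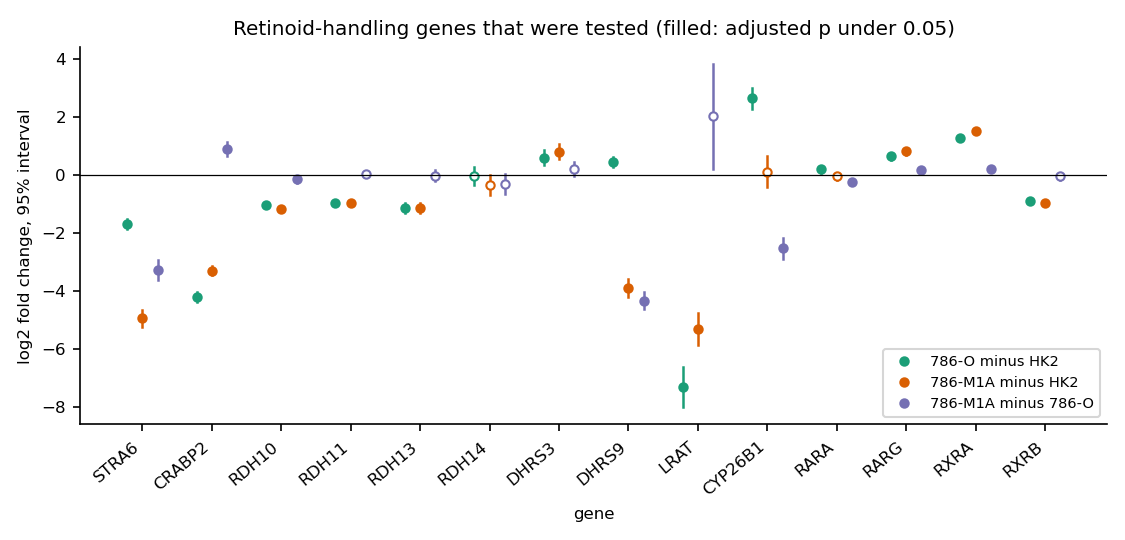
Fitted log2 fold change (y axis) with its 95% interval of the 14 retinoid-handling genes that were tested, for 786-O against HK2 (green), the metastatic derivative against HK2 (orange) and the metastatic derivative against 786-O (violet), filled where the adjusted p-value is under 0.05. Called against HK2 in both cancer lines, STRA6, CRABP2, RDH10, RDH11, RDH13, LRAT and RXRB lie below 0, and RXRA, RARG and DHRS3 lie above 0. For LRAT in HK2 against 786-O, the drawn interval is narrower than the exact interval of its ratio of pooled counts, 62.3 to 891. DHRS9, STRA6 and CYP26B1 were called between the cancer lines with at least a 2-fold difference, at -4.33, -3.26 and -2.52.

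Of 18 genes for enzymes that form aldehydes or act beside them, 7 were tested. Between 786-O and HK2, 2 were higher and 4 lower, between the metastatic derivative and HK2, 1 was higher and 4 lower, and between the cancer lines 2 were higher and 1 lower. Over all genes 41.7% and 42.5%, 42.0% and 42.9%, and 29.0% and 27.1% were higher and lower in these comparisons. *CHDH*, which makes betaine aldehyde from choline, was nearly absent from the cancer lines. It had 143, 157 and 180 counts in HK2 and 1 count in all in each cancer line, a ratio of pooled counts of 519 for HK2 against 786-O (exact interval 92.7 to 20500) and 486 against the metastatic derivative (86.8 to 19200). *MAOA*, which makes aldehydes from monoamines, was at -2.05 in 786-O and -1.99 in the metastatic derivative. Its sister enzyme *MAOB*, under the filter and named after its values were seen, had more counts in the cancer lines, with 7, 6 and 16 in HK2, 36, 41 and 40 in 786-O and 44, 72 and 44 counted in the metastatic derivative. *AOX1*, an oxidase that consumes aldehydes and retinaldehyde and so does not do what the list was drawn up for, was higher, at 1.65 and 2.32, and exceeded its 786-O level in the metastatic derivative by 0.67 (SE 0.08, adjusted p = 4.20e-07 by edgeR). The alcohol dehydrogenases that oxidize ethanol in the liver, *ADH1A*, *ADH1B*, *ADH1C* and *ADH4*, had at most 4 counts in any library. *ADH6*, also under the filter, had 15 counts in all in HK2, 41 in 786-O and 53 in the metastatic derivative. These alcohol dehydrogenases are named after their values were seen.

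A further list held 14 genes that act before or after *ALDH6A1*, *ALDH7A1* and *ALDH9A1*, and 11 of them were tested. Against HK2, 5 were higher and 5 lower in 786-O and 4 higher and 5 lower in the metastatic derivative, with medians of 0.01 and -0.02, and between the cancer lines 2 were higher and 6 lower, with a median of -0.25. The shares of all genes called higher and lower were 41.7% and 42.5%, 42.0% and 42.9%, and 29.0% and 27.1%. In the route of *ALDH6A1*, *ABAT*, a mitochondrial aminotransferase for GABA and beta-alanine, was at -2.00 in 786-O and -5.31 in the metastatic derivative against HK2. *HIBCH* and *HIBADH*, the valine degradation enzymes before *ALDH6A1*, were higher, at 0.64 and 0.51 in 786-O and 0.65 and 0.16 in the metastatic derivative, and *ACAD8*, an acyl-CoA dehydrogenase earlier in the same route, was lower, at -0.86 and -0.57; these 3 genes are named after their values were seen. In the route of *ALDH7A1*, *AASS*, the first enzyme of lysine degradation, rose to 18.7 ± 0.997 CPM in 786-O from 12.0 ± 0.894 CPM in HK2 and fell to 6.09 ± 0.319 CPM in the metastatic derivative (SD, n = 3), a log2 fold change of -1.62 between the cancer lines (SE 0.08, adjusted p = 1.45e-13 by edgeR). *TMLHE*, the first enzyme of carnitine synthesis, was at -0.49 in 786-O and 0.05 in the metastatic derivative, the latter not called. *BBOX1*, the last enzyme of that route, had 0 counts in every library. Both *TMLHE* and *BBOX1* are named after their values were seen. Of the genes that break down the methyl groups of choline, *SARDH* was at -2.06 and -4.36 and *DMGDH* at 3.07 and 2.47 in 786-O and the metastatic derivative against HK2.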

How the data were processed

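The members and the gene lists were chosen with earlier results of these data known. RNA was prepared as TruSeq Stranded mRNA libraries from dishes of each line plated for the purpose, and 9 libraries, 3 per line, were analysed. P-values measure the spread between dishes of 1 line. The authors counted reads per gene with featureCounts on GRCh38, per the labels, and deposited the counts as whole numbers without normalization; the use of strand is not given in the sources used here. Columns were matched to samples by name.

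Symbols were found for 27745 of the 28395 gene identifiers. Counts were fitted with edgeR 4.0.16 in R 4.3.3 (robust quasi-likelihood, TMM, all 9 libraries, a coefficient per line), for genes averaging 50 counts or more, as in the study. The paper's VSN and limma steps were replaced by this count test. The fit was also run on simulated counts with the same spread for every gene. That run held no gene with a line near 0 counts, and no result here rests on it. The biological coefficient of variation was 3.94%. Single genes were also tested by exact two-sided permutation of log2 CPM (prior count 2). Alternatives were DESeq2 1.42.0, RLE and upper-quartile scaling, no filter, at least 10 counts in every library, limma 3.58.1 on log2 counts (0 set to 0.5), only the 2 lines compared, a replicate block, and each library left out. Gene models came from GENCODE release 44, and promoters from RefSeq (GRCh38.p14). Protein sequences were not used here, so the planned active-site and coding-length steps were not run. Named are all members, the other aldehyde dehydrogenases and, per list, up to 8 genes past the threshold with at least a 2-fold difference and no overlap; exceptions are marked. Tables and figures were made in Python 3.11.15 (pandas 2.3.3, matplotlib 3.10.9).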

Additional observations from a re-analysis of the deposited data

Results flagged for a closer look

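For 5 of the 8 genes tested, the difference from HK2 was not of the same size in 786-O and the metastatic derivative, and the test of that difference is the comparison of the cancer lines itself. The difference in log2 fold change, the metastatic derivative minus 786-O, was 1.35 for *ALDH2*, which was further from HK2 in the metastatic derivative (higher in 3 of 3 libraries). It was -0.83 for *ALDH1A1*, which was further from HK2 in 786-O (lower in 3 of 3 libraries of the metastatic derivative). It was 0.18 for *ALDH1A3*, which was nearer to HK2 in the metastatic derivative, and was not called without replicate 2 of the metastatic derivative. It was -0.16 for *ALDH7A1*, which was further below HK2 in the metastatic derivative, and was not called without the same library. It was -0.23 for *ALDH9A1*, which was further below HK2 in the metastatic derivative. Of all genes tested, 29.0% were called higher and 27.1% lower between the cancer lines.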

How the results depend on the processing

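Outside the runs that left out a library, 181 log2 fold changes of the members under the alternatives kept their direction and their side of the threshold, 4 passed it only under the alternative and 1 changed sign. The last was *ALDH3A2* in the metastatic derivative against HK2, at -0.03 with upper-quartile scaling and not called either way. No scaling moved the median of all genes by more than 0.06. Requiring 10 counts or more in every library removed *ALDH2* and *ALDH1A1*, so that 3 members were called between the cancer lines in place of 5, and 4 in each comparison with HK2, all of them lower. Leaving out each library in turn, the members called between the cancer lines ranged from 3 to 6, with the lowest number without replicate 2 of the metastatic derivative. The difference of *ALDH1B1* between the cancer lines ranged from -0.06 to 0.01, not called in any run. With no filter on low counts more genes were tested, and those with at least a 2-fold difference numbered 5410 in place of 2830 (786-O against HK2), 5895 in place of 3219 (the metastatic derivative against HK2) and 1592 in place of 832 (the metastatic derivative against 786-O). With upper-quartile scaling 8 members were called in 786-O and 7 in the metastatic derivative against HK2. With limma *ALDH6A1* was called between the cancer lines, at -0.25 (adjusted p = 0.0345).

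Libraries with the same replicate number did not deviate together in every pair. Their correlations across genes lay between -0.167 and 0.0377 against HK2 and between 0.0739 and 0.215 for the cancer lines. Libraries with unlike numbers were not compared, so these values cannot decide whether the numbers pair the cancer lines. Under a replicate block, 6, 6 and 5 members and 10680, 10804 and 7179 of all genes were called in 786-O against HK2, the metastatic derivative against HK2 and the metastatic derivative against 786-O. Depth limits *ALDH1A2* and *ALDH3A1*, whose libraries were at or under 3 counts, and the size of the *ALDH1A1* difference from HK2.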
